A study of Mus musculus with 2 samples.

Results

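The 10 genes described here mark endothelial cells of the liver, which line its blood vessels. Of the 27998 genes in the count tables, 10 of 10 were found by symbol. Stab2, Clec4g, Oit3, Dnase1l3, Gpr182, Ehd3 and Lyve1 (7 genes) were taken as genes of the sinusoids, and Plvap, Vwf and Cd34 (3 genes) as genes of capillaries and large vessels. Their raw UMI counts (unique molecular identifiers, which tag single mRNA molecules) were read in endothelial cells, defined as cells with at least 2 UMIs of Cdh5, Kdr and Egfl7 together and 0 UMIs of the leukocyte gene Ptprc. None of the 10 genes was used in that gate. It held 54 of 9510 kept cells in one library and 89 of 8549 in the other.

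The cells were liver non-parenchymal cells of mice, meaning the cells other than hepatocytes, isolated by perfusion and a density gradient and profiled by 3′ droplet sequencing. Both groups received the methionine- and choline-deficient (MCD) diet for 8 weeks, a diet that causes fatty, inflamed and scarred livers. The FL/FL library came from PKM2FL/FL mice, which carry floxed alleles of the pyruvate kinase gene Pkm, and the ΔMAC library from PKM2ΔMAC mice, named for a deletion of its PKM2 form in macrophages. The labels do not give the Cre driver, the strain, the age or sex, or how many mice were pooled, and no group on a normal diet was analysed here. With 1 library per genotype there is no replicate, so no difference was tested, and a difference between genotypes cannot be told apart from a difference between preparations. Intervals in brackets are 95% exact intervals that cover counting error only.

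Liver sinusoids are capillaries of an unusual kind. Their endothelium is perforated by open pores, lacks a continuous basement membrane and clears waste molecules from blood through scavenger receptors such as stabilin-2. In chronic injury it can lose these features and gain those of ordinary capillaries, a change called capillarisation, in which proteins such as CD34, von Willebrand factor and PLVAP are commonly used as markers.

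The members by their known roles are as follows. Stab2 (chr10:86841198-87008025, mm10) encodes the hyaluronan and scavenger receptor stabilin-2, and Lyve1 (chr7:110850607-110863239) a hyaluronan receptor shared with lymphatic vessels. Clec4g (chr8:3707064-3720651) encodes the C-type lectin LSECtin. Gpr182 (chr10:127747276-127751732) encodes an atypical chemokine receptor. Dnase1l3 (chr14:7964533-7994573) encodes a secreted nuclease that degrades DNA in circulating particles, and Ehd3 (chr17:73804134-73832094) a protein of endosomal recycling. Oit3 (chr10:59422958-59441778) encodes a secreted zona pellucida domain protein. Plvap (chr8:71497765-71511752) encodes the protein of the diaphragms that close endothelial pores, Vwf (chr6:125546774-125686679) the platelet-binding von Willebrand factor, and Cd34 (chr1:194938819-194961279) a sialomucin of capillary endothelium, blood progenitors and fibroblasts.

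Upstream sequences were at hand for 4 of the 10 members in RefSeq promoters (GRCm38.p6), 3 sinusoidal genes and Cd34. They are shown so that the start regions of sinusoidal genes can be set beside that of a capillary gene. Each run is the 250 bases before the gene's start in that table, 5′ to 3′ on the gene's strand. That start can differ from the end of the gene span in the annotation used above, so the Ehd3 run lies inside its span and the Stab2 run overlaps the end of its span. Capitals mark the ETS core AGGAAG and the TATA box TATAAA, each searched on both strands.
Stab2 (chr10:87007943-87008192, minus strand): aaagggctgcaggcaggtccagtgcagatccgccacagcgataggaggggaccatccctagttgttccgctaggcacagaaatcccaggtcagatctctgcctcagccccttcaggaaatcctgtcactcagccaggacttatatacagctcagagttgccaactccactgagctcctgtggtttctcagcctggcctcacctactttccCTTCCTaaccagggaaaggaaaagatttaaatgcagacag
Clec4g (chr8:3720652-3720901, minus strand): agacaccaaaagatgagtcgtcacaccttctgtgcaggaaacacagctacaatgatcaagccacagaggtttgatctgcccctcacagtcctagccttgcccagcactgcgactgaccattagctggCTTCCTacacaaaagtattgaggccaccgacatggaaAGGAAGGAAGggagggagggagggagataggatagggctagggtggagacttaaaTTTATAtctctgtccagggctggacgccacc
Ehd3 (chr17:73804591-73804840, plus strand): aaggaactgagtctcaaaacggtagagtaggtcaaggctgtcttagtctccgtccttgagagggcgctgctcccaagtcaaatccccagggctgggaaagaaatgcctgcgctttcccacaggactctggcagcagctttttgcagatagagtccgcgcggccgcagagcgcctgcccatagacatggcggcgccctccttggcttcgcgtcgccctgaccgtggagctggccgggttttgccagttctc
Cd34 (chr1:194938571-194938820, plus strand): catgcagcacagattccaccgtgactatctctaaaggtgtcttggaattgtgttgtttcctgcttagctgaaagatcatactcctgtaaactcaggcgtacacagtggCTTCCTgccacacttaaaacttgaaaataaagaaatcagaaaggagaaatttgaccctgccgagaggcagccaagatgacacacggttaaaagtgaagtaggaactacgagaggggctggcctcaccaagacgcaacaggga
The ETS letters were present in Stab2 (1 match), Clec4g (3 matches, 2 of which overlap each other) and Cd34 (1 match) and had 0 matches in Ehd3. They occur in 29.5% of 32851 promoters of this length, so their presence is common. The TATA letters were found in 1 of the 4 windows, that of Clec4g, at -31 to -26 from the start, against 12.4% of all promoters. The GATA letters AGATAA had 0 matches in the 4 windows, against 9.99% of all promoters. A match here is a run of letters and not a measured binding site.

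The FL/FL library held 10054 cell barcodes and 54519921 UMIs and the ΔMAC library 8949 barcodes and 43134027 UMIs, with 17 barcodes in common. Pkm, whose PKM2 form is the deleted one, had a level of 453 CPM (365 to 556) in FL/FL and 129 CPM (81.1 to 196) in ΔMAC Kupffer cells, where CPM are a gene's UMIs per 1000000 UMIs of the cells summed. In endothelial cells it had 372 CPM (295 to 462) and 218 CPM (152 to 303). The gene counts do not separate the PKM1 and PKM2 forms. Endothelial cells were 0.568% (0.427 to 0.740) of kept cells in the FL/FL library and 1.04% (0.837 to 1.28) in the ΔMAC library, a ratio of 1.83 that ran from 1.49 to 2.12 over the other gates and filters. They were shallower in the ΔMAC library, with a median of 966 UMIs per cell against 2287, and had a median mitochondrial share of 0.644% against 3.18%. Of the endothelial cells, 44 in FL/FL and 41 in ΔMAC had at least 1000 UMIs, and 10 and 48 had fewer. The larger ΔMAC number thus lay among cells under 1000 UMIs. The range of the ratio did not include a limit at that depth. The part of depth in the results below was not tested except where a value at equal depth is given.

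A few gated cells lacked the other endothelial genes, and the comparison between libraries moved with them. In the FL/FL library 4 gated cells and in the ΔMAC library 2 carried at least 3 UMIs of the fibroblast genes Dcn, Col1a1 and Col3a1. The 4 FL/FL cells were large, from 4414 to 32455 UMIs, and supplied 30.9% of all endothelial UMIs of that library. The 2 ΔMAC cells, with 4978 and 6422 UMIs, supplied 7.11%. The 4 FL/FL cells together held 1008 UMIs of Dcn, a matrix proteoglycan, 70 of Upk3b and 22 of Msln, both mesothelial genes, and 9 of Kdr. Their counts of the endothelial genes Pecam1, Ptprb and Emcn were 0, as they were in the 2 ΔMAC cells. They had 1 UMI of the 7 sinusoidal members in each library. Values are therefore given for all gated cells and again without these 6 cells, a choice made after the data had been seen. This choice takes a larger share of UMIs from FL/FL than from ΔMAC. Other gated cells with 0 sinusoidal UMIs stay in, the largest with 2871 UMIs in FL/FL and 11975 UMIs in ΔMAC. The second version is therefore not an even correction of the 2 libraries, and the part of the cells that stay in was not tested.

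**Figure D1:**
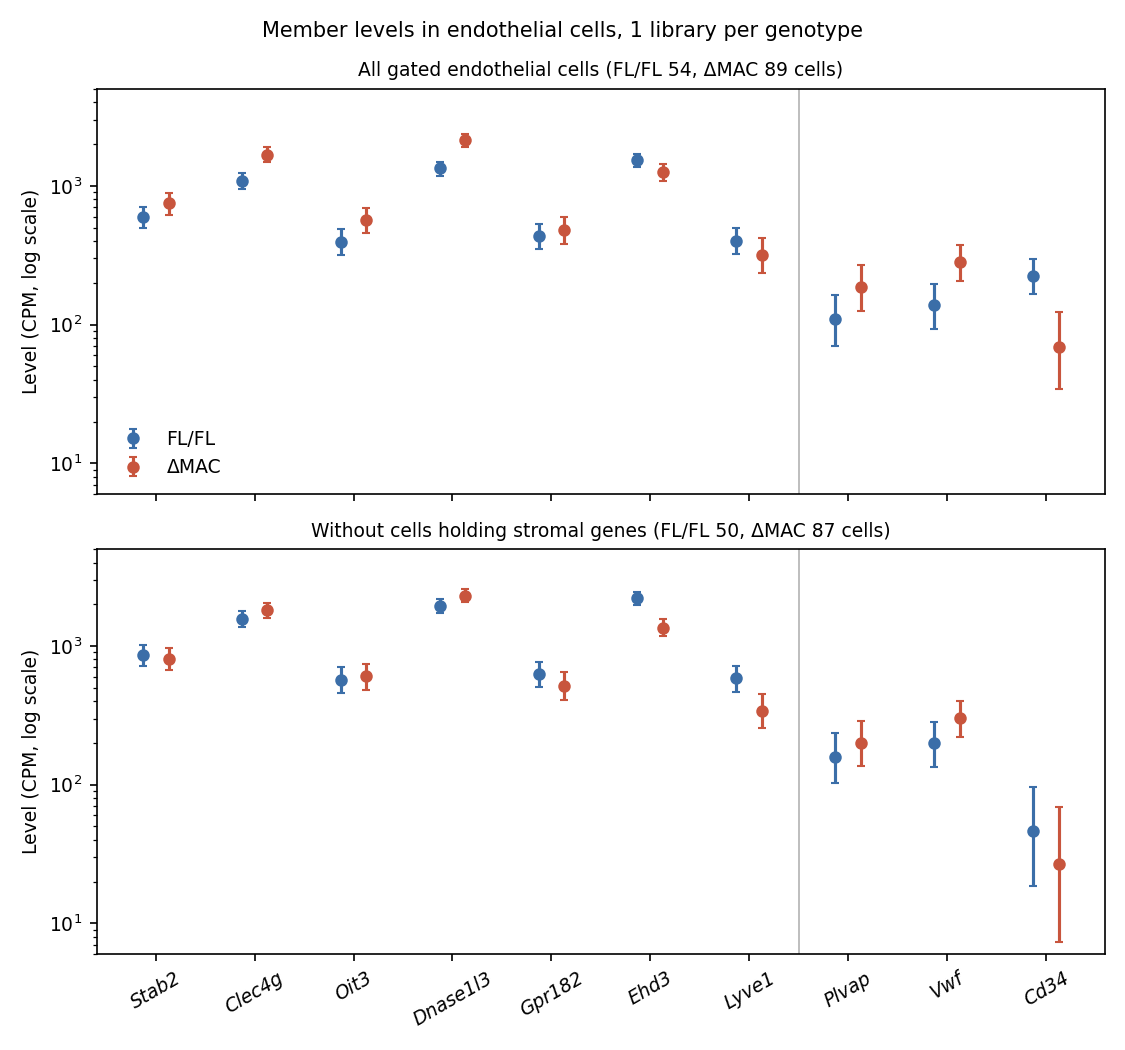
Level of each member in endothelial cells (CPM, log axis) in the FL/FL and ΔMAC libraries, with 95% Poisson intervals that cover counting error only, for all gated cells (top) and without cells holding stromal genes (bottom). The vertical line parts the 7 sinusoidal genes from Plvap, Vwf and Cd34. In the upper panel Cd34 is at 225 and 68.6 CPM, and in the lower panel at 46.5 and 26.8 CPM with overlapping intervals.

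The sinusoidal genes as a group were measured at close levels in the 2 libraries, and the sign of the small gap depended on the 6 stromal-gene cells. Summed over the 7 genes, endothelial cells held 1260 UMIs (5784 CPM) in the FL/FL library and 1154 UMIs (7194 CPM) in the ΔMAC library, a ratio of ΔMAC over FL/FL of 1.24 (1.15 to 1.35). Without the 6 cells the levels were 8362 and 7738 CPM and the ratio 0.925 (0.854 to 1.003). Of the 7 genes, 0 were 2-fold apart in either direction with or without those cells. Among all 3583 genes with at least 20 UMIs, 6.28% were at least 2-fold higher and 8.04% at least 2-fold lower in the ΔMAC library, with a median log2 ratio of 0.03.

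The scavenger and lectin receptors were measured as follows. Stab2 had 130 UMIs (597 CPM, 499 to 709) in FL/FL and 120 UMIs (748 CPM, 620.2 to 895) in ΔMAC cells, and its ratio of 1.25 (0.970 to 1.62) became 0.933 (0.722 to 1.20) without the stromal-gene cells. Clec4g had 236 UMIs (1083 CPM, 949.6 to 1231) and 270 UMIs (1683 CPM, 1488 to 1896), with a ratio of 1.55 (1.30 to 1.86) that became 1.16 (0.967 to 1.38). The interval of Stab2 included equal levels in both versions, and that of Clec4g only without the 6 cells. Lyve1 had 88 UMIs (404 CPM, 324 to 498) and 51 UMIs (318 CPM, 237 to 418), a ratio of 0.787 that moved further from equality, to 0.586 (0.406 to 0.836).

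Among the other sinusoidal genes, Ehd3 went with Lyve1. Ehd3 had 334 UMIs (1533 CPM, 1373 to 1707) in FL/FL and 202 UMIs (1259 CPM, 1092 to 1445) in ΔMAC cells, a ratio of 0.821 over all gated cells and 0.613 (0.512 to 0.732) without the stromal-gene cells. Dnase1l3 had 291 UMIs (1336 CPM, 1187 to 1498.5) and 343 UMIs (2138 CPM, 1918 to 2377), a ratio of 1.60, and 1.19 (1.02 to 1.40) without them. The nuclease gene and the endosomal gene therefore lay on opposite sides of equality in both versions. Oit3 had 86 UMIs (395 CPM, 316 to 488) and 91 UMIs (567 CPM, 457 to 697), with ratios of 1.44 and 1.06 (0.778 to 1.44). Gpr182 had 95 UMIs (436 CPM, 353 to 533) and 77 UMIs (480.0 CPM, 379 to 599.9), with ratios of 1.10 and 0.819 (0.598 to 1.12). Ehd3 and Lyve1 were the 2 sinusoidal members that were lower in the ΔMAC library in both versions.

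**Figure D2:**
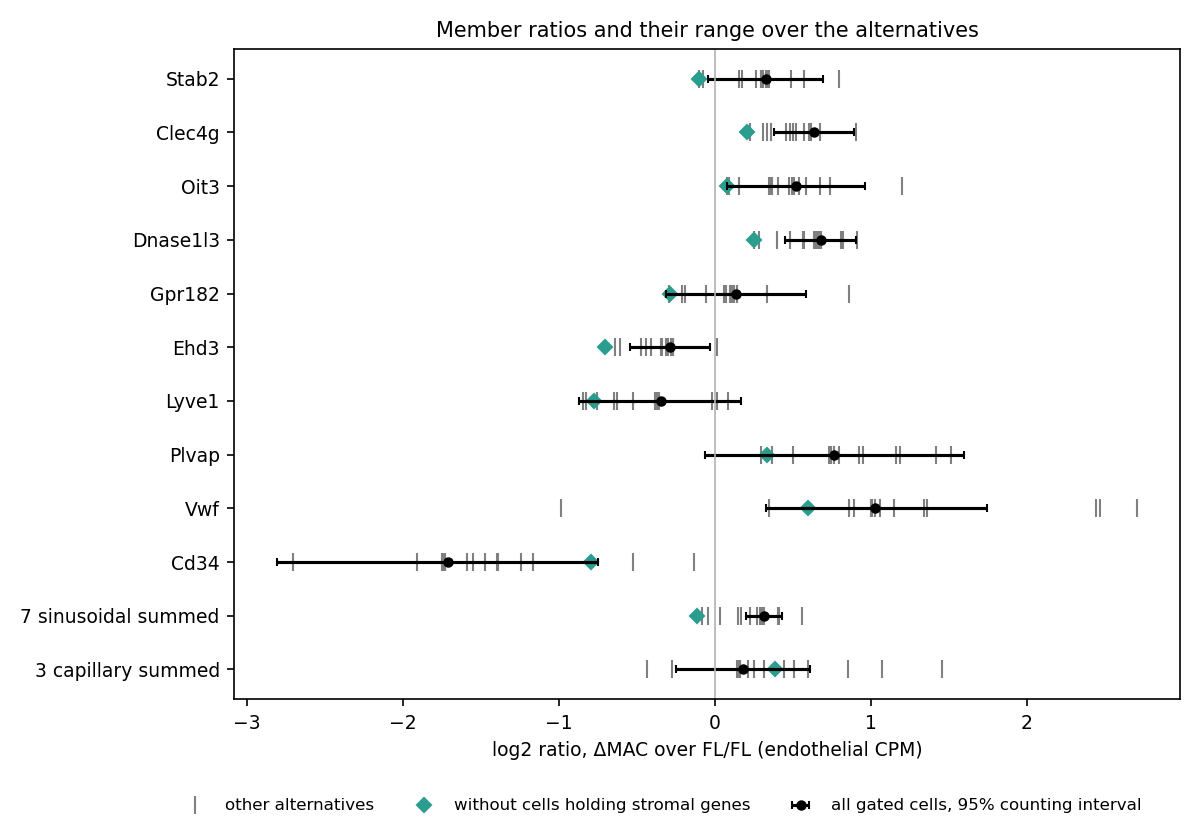
Log2 ratio of ΔMAC over FL/FL for each member and the 2 sums, with its 95% counting interval (black), its value without cells holding stromal genes (diamonds) and its values under the other alternatives (ticks). Cd34 stays below 0 and Plvap above 0 throughout, while the sinusoidal sum runs from -0.11 to 0.56 and Vwf from -0.98 to 2.71.

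Of the 3 capillary and large vessel genes, 1 was 2-fold higher (Vwf) and 1 was 2-fold lower (Cd34) in the ΔMAC library over all gated cells. Over all 3583 genes with at least 20 UMIs, 6.28% were higher and 8.04% lower. Cd34 had 49 UMIs (225 CPM, 166 to 297) in 9 of 54 FL/FL cells and 11 UMIs (68.6 CPM, 34.2 to 123) in 4 of 89 ΔMAC cells, a ratio of 0.305 (0.143 to 0.594). The stromal-gene cells held 42 of the 49 and 7 of the 11 UMIs, among them 23 and 16 UMIs in the largest 2 FL/FL cells. In the remaining cells Cd34 had 7 and 4 UMIs, and the ratio of 0.577 (0.124 to 2.27) had an interval that spans differences in either direction. At this depth no difference of Cd34 in endothelial cells was detectable.

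Plvap had 24 UMIs (110.2 CPM, 70.6 to 164) in 8 FL/FL cells and 30 UMIs (187 CPM, 126 to 267) in 11 ΔMAC cells. Its ratio was 1.70 (0.959 to 3.03), and 1.26 (0.714 to 2.26) without the stromal-gene cells. Vwf had 30 UMIs (138 CPM, 92.9 to 197) in 2 FL/FL cells and 45 UMIs (281 CPM, 205 to 375) in 5 ΔMAC cells. Its ratio of 2.04 (1.26 to 3.35) rests on 7 cells, was 1.52 (0.934 to 2.49) without the stromal-gene cells, and became a log2 ratio of -0.98 when each cell was thinned to 500 UMIs. That thinned value rests on 6 UMIs in 2 FL/FL cells and 5 UMIs in 4 ΔMAC cells. Thinned to 1000 UMIs, Vwf had 7 UMIs in 2 of 44 FL/FL cells and 21 UMIs in 5 of 41 ΔMAC cells. The log2 ratio of Vwf was 1.03 over all gated cells and 2.45 without the cell richest in capillary UMIs of each library. It was 2.71 without cells that passed another gate, which include the FL/FL cell with 22 of the 30 UMIs. Without the stromal-gene cells Plvap, Vwf and the 7 sinusoidal members were less than 2-fold apart (Cd34, with under 20 UMIs, was not counted), against 6.32% of 2895 genes higher and 4.73% lower.

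Shares of cells with a UMI were compared at equal depth, since ΔMAC cells were shallower. With each cell thinned to 500 UMIs, which left out 0 cells, Ehd3 was found in 61.1% (46.9 to 74.1) of FL/FL and 46.1% (35.4 to 57.0) of ΔMAC endothelial cells. Unthinned, those shares were 79.6% and 66.3%. Lyve1 was found in 18.5% (9.25 to 31.4) and 12.4% (6.33 to 21.0) of thinned cells, and in 40.7% and 24.7% of unthinned cells. Its level in thinned cells was close to equal, with 12 UMIs in FL/FL and 20 UMIs in ΔMAC cells (log2 ratio 0.016). At 500 UMIs Ehd3 and Lyve1 were the 2 sinusoidal genes with the lower share in the ΔMAC library. The other 5 had the higher share there, from Clec4g (46.3% and 48.3%) to Oit3 (18.5% and 34.8%), with Stab2 at 24.1% and 39.3%, Gpr182 at 18.5% and 32.6% and Dnase1l3 at 46.3% and 56.2%. The intervals of the 2 libraries overlapped for every member. The order of the libraries depended on depth for some genes. At 1000 UMIs, which left 44 and 41 cells, Clec4g was found in 59.1% and 48.8%, Stab2 in 43.2% and 43.9%, Ehd3 in 70.5% and 56.1% and Lyve1 in 27.3% and 19.5%. Unthinned, Clec4g was found in 74.1% and 70.8%, Stab2 in 51.9% and 49.4% and Gpr182 in 59.3% and 51.7%. At 500 UMIs Plvap, Vwf and Cd34 were each found in 3.70% of FL/FL cells and in 5.62%, 4.49% and 3.37% of ΔMAC cells. At 1000 UMIs these 3 genes were found in 4.55%, 4.55% and 11.4% of FL/FL cells and in 17.1%, 12.2% and 7.32% of ΔMAC cells, with overlapping intervals. B cells at 500 UMIs had shares of at most 0.990% in the FL/FL library (Ehd3, 21 of 2122 cells) and 0.647% in the ΔMAC library (Ehd3, 15 of 2318 cells).

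**Figure D3:**
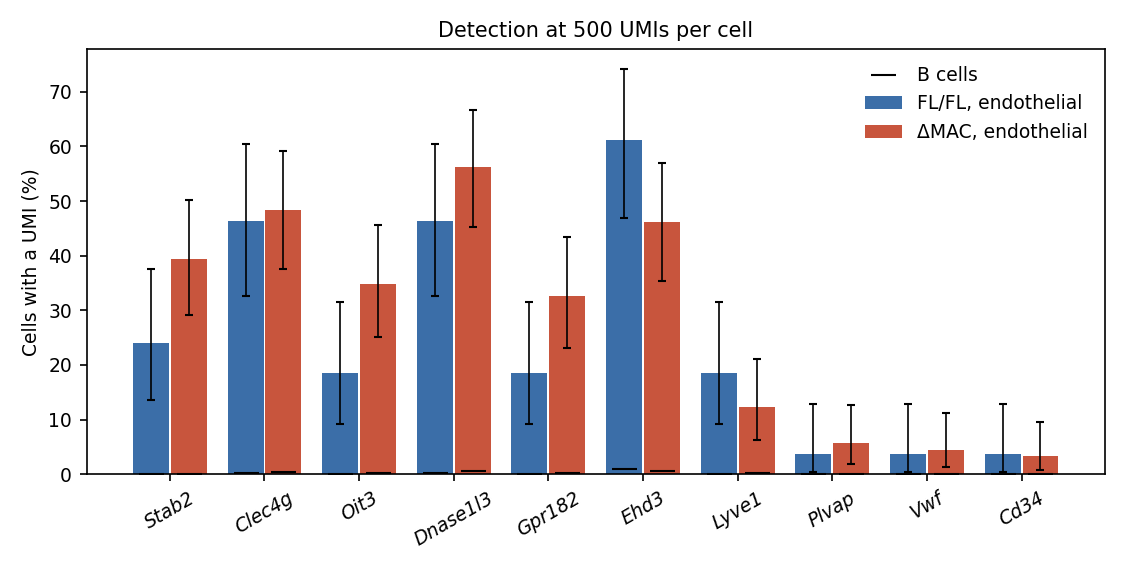
Percent of endothelial cells with at least 1 UMI of each member after every cell was thinned to 500 UMIs (bars, 54 FL/FL and 89 ΔMAC cells, 95% exact binomial intervals), with the share among B cells as dashes. At this depth the shares of Ehd3 and Lyve1 are lower in the ΔMAC library and those of the other sinusoidal genes higher, with overlapping intervals throughout.

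The sinusoidal sum also varied with the depth of the cells, in a different way in each library. Without the stromal-gene cells, FL/FL cells under 1000 UMIs had 10110 CPM (8017 to 12583; 10 cells), those from 1000 to under 3000 UMIs had 5165 CPM (4411 to 6010; 20 cells) and those of 3000 or more had 9174 CPM (8617 to 9757; 20 cells). In the ΔMAC library the same classes had 12143 CPM (11035 to 13333; 48 cells), 7434 CPM (6672 to 8259; 26 cells) and 5537 CPM (4984 to 6135; 13 cells). The ΔMAC level was thus the higher one below 3000 UMIs and the lower one above. However, the deepest ΔMAC class includes cells of 11975, 8047, 5352, 3310 and 3142 UMIs that had 0 sinusoidal UMIs. Those of 8047, 5352 and 3310 UMIs also passed another gate. Their UMIs count in the class total of 66099, which lowers every sinusoidal level of that class, those of Ehd3 and Lyve1 included. The order of the libraries without these cells was not tested. Ehd3 was lower in the ΔMAC library in each of the 3 classes, at 2148 against 1766 CPM, 1670 against 1585 CPM and 2375 against 968 CPM, with intervals that overlapped in the shallower classes and not in the deepest. Lyve1 was lower only among the deepest cells, at 679.9 CPM (535 to 852) against 75.6 CPM (24.6 to 177), where the ΔMAC value rests on 5 UMIs in 13 cells. Below 1000 UMIs it had 1 UMI in FL/FL and 22 UMIs in ΔMAC cells. The capillary sum had 0 and 3 UMIs in the shallowest class. It had 402 CPM (214 to 688) in FL/FL and 1028 CPM (758 to 1363) in ΔMAC cells of the middle class. In the deepest class it had 435 CPM (321 to 577) and 424 CPM (281 to 612). Plvap had 0 UMIs (up to 114 CPM) and 19 UMIs (407 CPM, 245 to 636) in the middle class, and 218 and 121 CPM in the deepest, where the intervals overlapped.

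The sinusoidal genes were found together in single cells. Of cells with a Stab2 UMI, 26 of 28 FL/FL and 40 of 44 ΔMAC cells also had Clec4g, against 14 of 26 and 23 of 45 cells without Stab2. Lyve1 was narrower and lay within the Stab2 cells for the most part. Of 22 FL/FL cells with Lyve1, 18 had Stab2 and 19 had Dnase1l3, and of 22 ΔMAC cells with Lyve1, 18 had Stab2 and 22 had Dnase1l3. All 7 sinusoidal genes were found in 14 of 54 FL/FL cells (25.9%) and in 9 of 89 ΔMAC cells (10.1%), but the cells with all 7 were also deep, with a median of 4731 and 2351 UMIs. Deeper cells show more genes whatever their kind, so these counts describe the cells as sequenced.

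Sorted by member UMIs, most gated cells were sinusoidal alone. That kind made up 35 of 54 FL/FL cells (64.8%, 50.6 to 77.3) and 69 of 89 ΔMAC cells (77.5%, 67.4 to 85.7). Cells with UMIs of both groups numbered 11 in each library (20.4% and 12.4%), and cells with neither 3 and 6. Cells with capillary or large vessel genes alone numbered 5 (9.26%, 3.08 to 20.3) and 3 (3.37%, 0.701 to 9.54), and 3 of the 5 and 1 of the 3 were stromal-gene cells. Thinned to 500 UMIs, the sinusoidal kind had 72.2% and 77.5%. With Pecam1 in place of Kdr in the gate it had 36.0% and 53.0%, and cells with any sinusoidal UMI were 48.3% and 61.9%, against 85.2% and 89.9% in the gate used here. The intervals overlapped for each kind.

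**Figure D4:**
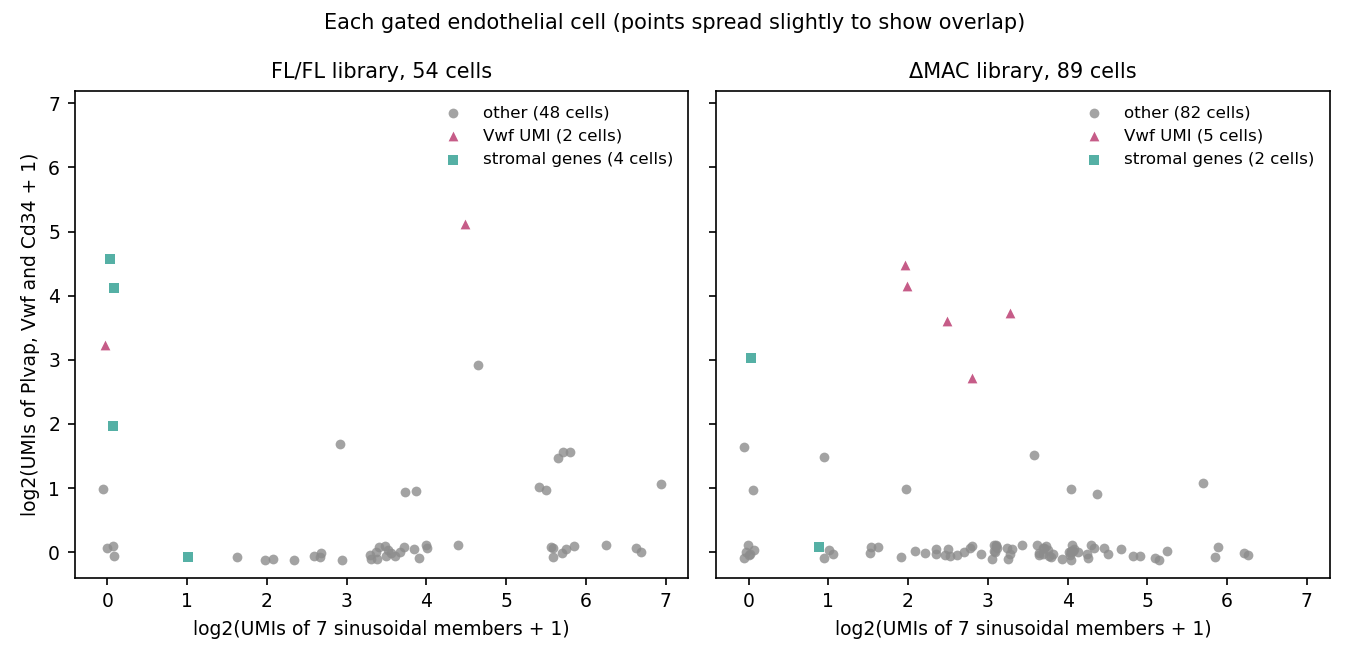
UMIs of the 7 sinusoidal members (x axis) against UMIs of Plvap, Vwf and Cd34 (y axis) in each gated endothelial cell, as log2(UMIs + 1), by library. The highest points on the y axis are cells with Vwf (triangles, 2 and 5 cells) or with stromal genes (squares, 4 and 2 cells), and the stromal-gene cells sit at 0 or 1 sinusoidal UMIs.

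The 7 cells with Vwf had a gene content of their own in both libraries. In FL/FL they held 22 and 8 Vwf UMIs, and in ΔMAC 13, 12, 10, 6 and 4. Of the 7, 6 had UMIs of Rspo3, which encodes a Wnt agonist made by endothelium near the central vein, and 6 had UMIs of Plvap. Rspo3 stood at 3552 CPM (2549 to 4818) and 2611 CPM (1808 to 3649) in them, against 57.5 CPM (24.8 to 113) and 36.8 CPM (11.9 to 85.8) in the other cells without stromal genes. In FL/FL, 36 of its 41 UMIs lay in the cell with 22 Vwf UMIs, which also passed the Kupffer gate, and 5 in the other cell. Plvap stood at 953 CPM (476 to 1705) and 1689 CPM (1059 to 2558), against 93.5 CPM (49.8 to 160) and 58.8 CPM (25.4 to 116). These 7 cells were chosen by Vwf, and Rspo3 was singled out after its values were seen. Other genes of the central vein side did not all go with it. Wnt2 had 0 and 1 UMIs in the Vwf cells, against 439 and 243 CPM in the other cells. Thbd stood at 173 and 154 CPM in them, against 173 and 162 CPM. Wnt9b had 2 and 4 UMIs in them, or 173 CPM (21.0 to 626) and 307 CPM (83.7 to 786). In the other cells it stood at 43.2 CPM (15.8 to 93.9) and 22.1 CPM (4.55 to 64.5), so it was higher in the Vwf cells, with overlapping intervals in FL/FL.

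Sinusoidal genes were unevenly present in the Vwf cells. Lyve1 had 0 UMIs in all 7, with exact upper limits of 319.6 CPM in FL/FL and 283.3 CPM in ΔMAC. The other cells had 633 CPM (508 to 780) and 375 CPM (279 to 493), so the ΔMAC intervals overlapped. Stab2 and Dnase1l3 had 1 UMI each over the 7 cells, against 928 and 882 CPM for Stab2 in the others. Ehd3 was present, at 1126 CPM (599.6 to 1926) and 1229 CPM (702 to 1995), against 2302 and 1368 CPM. Gpr182 was also found, with 1 and 6 UMIs. Pecam1 was found in all 7 cells, and the platelet genes Ppbp, Pf4 and Itga2b had 0 UMIs. The FL/FL cell with 22 Vwf UMIs also passed the Kupffer gate and had 9500 UMIs, and it held all 11 of the Plvap and all 13 of the Ehd3 UMIs of the FL/FL pair. The other FL/FL cell had 0 UMIs of every sinusoidal member.

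Genes outside the list were compared between cells with capillary or large vessel genes alone and cells with sinusoidal genes alone, within each library. At least 2-fold apart in the same direction in both libraries were 44 genes higher (5.35%) and 130 lower (15.8%) of 823 genes with enough UMIs. The 8 farthest on the higher side were Dcn, Rarres2, Igfbp6, Mgp, S100a6, Atf3, Dnajb1 and Rnase4, with log2 ratios from 5.90 and 7.62 for Dcn to 2.88 and 2.70 for Rnase4. Dcn and Mgp encode matrix proteins, and Atf3 and Dnajb1 are stress response genes. On the lower side were Sepp1, Maf, Aqp1, Cxcl10, Gpihbp1, Kdr, Fcgr2b and Ptprb. Kdr is a gate gene, so its level in each kind depends on how the cells were chosen. Maf is a transcription factor of sinusoidal endothelium, Aqp1 a water channel, Gpihbp1 the anchor of lipoprotein lipase and Fcgr2b an Fc receptor that clears immune complexes. Fcgr2b had 145 and 224 UMIs in the sinusoidal kind and 0 in the other kind of both libraries. The stromal-gene cells are defined in part by Dcn, and 3 of the 5 FL/FL and 1 of the 3 ΔMAC cells of the capillary kind are such cells. Without the stromal-gene cells 2 cells of the capillary kind were left in each library, and 30 higher genes (4.89%) and 28 lower (4.57%) of 613 remained. The 2 ΔMAC cells left had 3142 and 5352 UMIs. The deeper one also passed the conventional dendritic gate and had 1 UMI of Cd34, 2 of Egfl7 and 0 of Cdh5 and Kdr. The genes that remained therefore compare sinusoidal cells in part with a cell of that gate. Of the 8 genes named on the higher side 0 remained, and of the 8 on the lower side 5 did, namely Sepp1, Maf, Gpihbp1, Kdr and Fcgr2b. Of the 44 higher genes 3 were among the 30, namely Ier3, Slc6a6 and Vim, and of the 130 lower genes 19 were among the 28. At 500 UMIs per cell the 174 genes became 11.

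Across the cell types with enough cells, 9 of the 10 members were highest in endothelial cells. Of the 10, 9 were at least 2-fold higher in endothelial cells than in each of the 7 other gated types with at least 20 cells, in both libraries, where 15.4% of the 3583 genes with at least 20 UMIs in endothelial cells were. Stab2 was 30.3-fold and 11.6-fold above the next type, the Kupffer cells, liver macrophages, in which it had 4 UMIs in 4 of 114 cells and 11 UMIs in 10 of 104 cells. Its Kupffer level was 19.7 CPM (5.37 to 50.5) in the FL/FL and 64.7 CPM (32.3 to 116) in the ΔMAC library. Ehd3 was 31.8-fold and 33.3-fold above T, NK and innate lymphoid cells, and Clec4g 115-fold and 128-fold above the next type. Types with under 20 cells in a library were not part of that count. Among these, stellate or fibroblast cells of the ΔMAC library had 453 CPM of Plvap, above its endothelial level of 187 CPM. The member left out of the 9 was Cd34, which was 2.73-fold above conventional dendritic cells in the FL/FL library and 0.917-fold in the ΔMAC library.

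**Figure D5:**
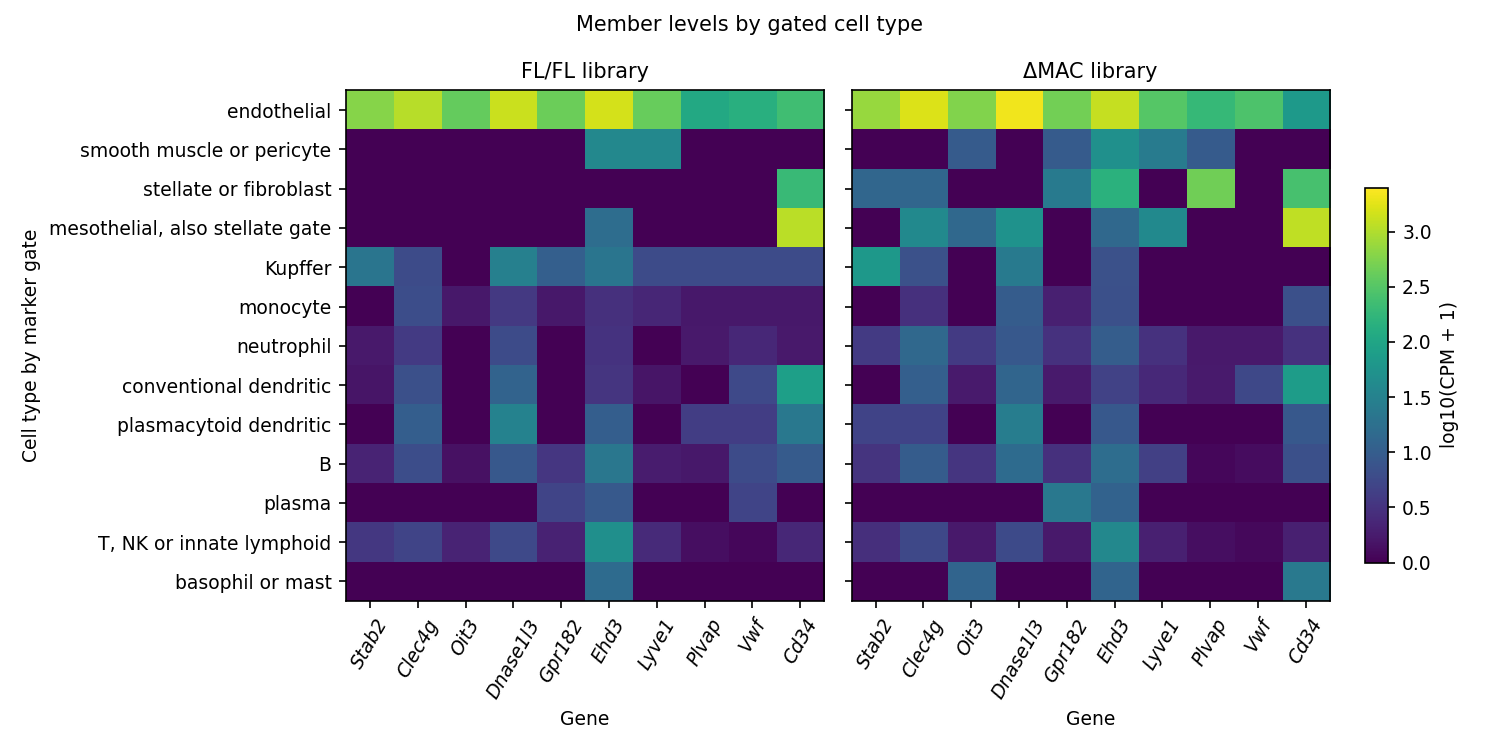
Level of each member, log10(CPM + 1), in each gated cell type of the FL/FL (left) and ΔMAC (right) libraries. The endothelial row is high for the sinusoidal genes, Cd34 is highest in the mesothelial cells (1129 and 1193 CPM), and Plvap is high in ΔMAC stellate or fibroblast cells (453 CPM).

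Cd34 was led by mesothelial cells, which form the liver's outer lining. Cells that passed both the mesothelial and the stellate gate had 1129 CPM (885 to 1420) in 15 of 16 FL/FL and 1193 CPM (959.7 to 1467) in 24 of 24 ΔMAC cells. Stellate or fibroblast cells had 201 CPM (96.5 to 370.1) and 257 CPM (159 to 393). Conventional dendritic cells had 82.4 CPM (69.4 to 97.0) in 57 of 161 cells and 74.8 CPM (60.8 to 90.9) in 37 of 121 cells. In each of these types the 2 libraries had overlapping intervals. Among dendritic cells, those with an Mki67 UMI, a gene of dividing cells, had 110.1 and 153 CPM of Cd34, and those without had 72.5 and 59.2 CPM. Endothelial cells without stromal genes had 46.5 CPM (18.7 to 95.8) and 26.8 CPM (7.31 to 68.7). These intervals overlapped those of the dendritic cells and lay below those of the mesothelial and stellate classes.

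Ehd3 was also found in lymphocytes, in another ratio to the other sinusoidal genes than in endothelial cells. In T, NK and innate lymphoid cells it had 48.3 CPM (45.7 to 50.9) in 957 of 4725 FL/FL cells and 37.8 CPM (35.2 to 40.4) in 623 of 3692 ΔMAC cells, where Stab2 had 2.57 and 1.85 CPM. Endothelial cells held 334 Ehd3 to 130 Stab2 UMIs in the FL/FL library, and T, NK and innate lymphoid cells 1352 to 72. Cells with a Cd3e UMI, a T cell receptor gene, had 70.8 CPM (66.3 to 75.5) and 56.0 CPM (51.5 to 60.8), and cells without had 28.3 and 21.6 CPM. Cells with Ncr1, a natural killer receptor gene, had 26.6 CPM (23.8 to 29.6) and 15.6 CPM (13.1 to 18.4). The order of these classes was the same in both libraries. Because of these cells, endothelial cells held 334 of the 2153 Ehd3 UMIs of the FL/FL library and 202 of the 1337 of the ΔMAC library.

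Plvap and Vwf each had a small group of UMIs elsewhere. In ΔMAC stellate or fibroblast cells Plvap had 37 UMIs (453 CPM, 319 to 625), 35 of them in the 4 cells with a UMI of Lrat, a gene of vitamin A-storing stellate cells. The 10 FL/FL cells of that gate had 0 Plvap UMIs, with an exact upper limit of 74.2 CPM, and none of them had Lrat. In FL/FL B cells Vwf had 37 UMIs, of which 35 were in 1 cell. Conventional dendritic cells had Vwf in 8 of 161 and 6 of 121 cells, with 1 UMI in each.

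Many member UMIs lay outside the gate. Of the 7 sinusoidal genes' UMIs, the endothelial gate held 29.5% of 4267 in the FL/FL library and 34.0% of 3396 in the ΔMAC library. Cells with the same endothelial genes and a Ptprc UMI, which the gate leaves out, held 23.9% (1018 UMIs in 46 cells) and 10.6% (359 UMIs in 98 cells). In those cells Stab2 stood at 132 CPM (105 to 163) and 31.2 CPM (20.4 to 45.7) and Ehd3 at 409.6 CPM (361 to 462) and 84.0 CPM (65.5 to 106). Egfl7 was found in 63.0% of them in FL/FL and 29.6% in ΔMAC, against 85.2% and 89.9% in the endothelial gate. Cdh5 was found in 69.6% and 71.4% of them. Leukocyte classes held Cdh5 too, as in 33 of 97 FL/FL and 63 of 172 ΔMAC cells that passed both the plasmacytoid dendritic and the monocyte gate. What kind of cells the cells with Ptprc are was not tested, and their make-up can differ between the libraries. All remaining cells held 46.6% and 55.4%, at 40.6 and 47.7 CPM. Much of that rest was Ehd3. For the other 6 sinusoidal genes together, the endothelial gate held 43.8% of 2114 and 46.2% of 2059 UMIs, the cells with Ptprc 35.8% and 14.0%, and all remaining cells 20.4% and 39.7%, at 8.80 and 20.7 CPM.

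The profile across types most like that of the sinusoidal sum, over 16 points (8 types in each library) and among 1272 genes, belonged to Fam167b (Pearson's r = 0.982), the prostaglandin transporter gene Slco2a1 (0.981) and the G protein subunit gene Gng11 (0.977). For the capillary sum it belonged to the junction gene F11r (0.940), the endothelin-converting enzyme gene Ece1 (0.938) and the cytokine receptor gene Il6st (0.917). The points of a library share cells, depth and free RNA, and these values are descriptions across types.

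Other genes of the same vessels gave a wider view of the comparison between libraries. The shares over all genes were 6.28% higher and 8.04% lower, and 6.32% and 4.73% without the stromal-gene cells. Of 20 other sinusoidal genes 19 had enough UMIs, and 0 were 2-fold apart (median log2 ratio 0.17, and -0.15 without the stromal-gene cells). The farthest were the transcription factor gene Gata4 (log2 ratio -0.60), Adam23 (0.55), the mannose receptor gene Mrc1 (0.55) and Igfbp7 (0.49). Of 17 pan-endothelial genes 0 were 2-fold apart (median 0.36, and -0.07 without those cells). The farthest were the gate genes Cdh5 (0.86) and Egfl7 (0.74), the TGF-β co-receptor gene Eng (0.70) and the adhesion gene Icam2 (0.64). Cells were chosen by their UMIs of Cdh5, Egfl7 and Kdr, so the levels of these genes depend on the gate. Cdh5 and Egfl7 count in the pan-endothelial median, and Kdr (-0.34) in that of the other sinusoidal genes. Of 11 capillarisation and basement membrane genes with enough UMIs, 0 were 2-fold apart (median 0.09), among them Ly6a (0.65), the laminin gene Lama4 (-0.65), the collagen gene Col4a2 (0.32) and Fabp5 (0.27). Without the stromal-gene cells 1 of 10 was higher (median -0.16). Col15a1, Apln and Vwa1 had 0 UMIs in both libraries.

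Zonation and signalling genes were sparse. Their counts below stand beside 6.28% higher and 8.04% lower over all genes, and 6.32% and 4.73% without the stromal-gene cells. Of 7 central vein side genes 0 were 2-fold apart (median -0.06, and -0.47 without the stromal-gene cells), with Thbd (-0.45), Cdh13 (-0.44) and the Wnt ligand gene Wnt2 (-0.40) lowest and Selp at 0.12. Of 7 portal and arterial side genes, 3 were higher in the ΔMAC library with or without those cells (median 0.011, and 0.62 without them). The 3 were the scavenger receptor gene Msr1 (8 and 20 UMIs, log2 ratio 1.76), the Notch ligand gene Jag1 (7 and 15 UMIs, 1.54) and Efnb2 (8 and 17 UMIs, 1.53). The others were Ntn4 (-0.24), Cd9 (-0.17), Gja4 (-0.12) and Ltbp4 (0.01). Without the stromal-gene cells Ntn4, Cd9 and Gja4 were at -0.66, -0.45 and -0.61, and Ltbp4 at 0.62. Of 7 Notch and shear response genes 2 were higher and 1 lower. Hes1, a Notch target, had 31 and 57 UMIs (1.32), and Klf4, a flow-responsive factor, had 176 and 61 UMIs (-1.09). Klf4 then had 49 and 56 UMIs (0.21) and Hes1 30 and 43 UMIs (0.53) without the stromal-gene cells. Of 7 leukocyte adhesion genes 1 was higher, Cd44 (5 and 16 UMIs, 2.12), with Vcam1 at 0.89 and F11r at 0.53. Without the stromal-gene cells Cd44 had too few UMIs to be counted, and 0 of the other 6 were higher (median 0.07). Of 6 angiocrine genes 0 were 2-fold apart (median -0.07, and -0.50 without those cells), with Edn1 at 0.56, Tgfb1 at -0.29 and Hgf at -0.20. Of 11 scavenging genes 1 was higher with or without those cells, Msr1 (median 0.0034, and -0.26 without them), with Fcgr2b at 0.48 and Lamp1 at 0.33. Of the lymphatic genes 0 had enough UMIs (18 and 11 UMIs in 3 and 2 cells).

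Markers of other cells moved with the library in the same gated cells, mostly through few cells. Over all 3583 genes 6.28% were at least 2-fold higher and 8.04% lower. Stellate and fibroblast markers summed to 5187 CPM in FL/FL (6 cells) and 736 CPM in ΔMAC (4 cells), with 4 of 4 lower, and mesothelial markers to 1033 and 137 CPM, with 6 of 6 lower. Smooth muscle markers summed to 110.2 CPM (4 cells) and 1459 CPM (3 cells), with 4 of 4 higher. Hepatocyte markers summed to 335 and 1009.9 CPM, with 2 of 3 higher (Alb, 10 and 99 UMIs, and Ttr, 3 and 27 UMIs), and cholangiocyte markers to 151 and 997 CPM. Neutrophil markers summed to 161 and 405 CPM, with 2 of 2 higher, and B cell markers to 234 and 74.8 CPM, with 1 of 1 lower. Kupffer markers summed to 1607 and 2138 CPM (11 and 7 cells), with C1qa higher and Marco lower, and T and NK markers to 179 and 125 CPM. Platelet markers had 9 and 2 UMIs and erythroid markers 25 and 13 UMIs in all. Without the cells that passed another gate, the log2 ratio of the sinusoidal sum was 0.15 and that of the capillary sum 1.07, against 0.31 and 0.18 over all gated cells. With mitochondrial, haemoglobin and hepatocyte genes taken out of the totals, the sinusoidal sum was at 0.30.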

How the data were processed

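Liver non-parenchymal cells of 1 FL/FL and 1 ΔMAC library were profiled. The deposited files hold raw UMI counts per gene and cell, and per the file headers the authors' counting tool was Cell Ranger, version 6.0.0. The mm10 build and Seurat 4.3.0 are named per the submitters' processing notes, with no role given, and the labels leave the kit version open (v2 or v3). Whether the counting used introns or strand is not given in the sources used here.

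Cells with at least 300 genes and under 20% mitochondrial UMIs were kept. Predicted doublets (480 and 328) were removed with Scrublet in scanpy 1.11.5 (expected rate 0.08). Cell types came from marker gates on raw counts, and cells passing several gates without the endothelial one were left out. The mesothelial cells are shown as a nested class, added after the data were seen, because each of them also passed the stellate gate. UMIs were summed per type and library and divided by the total and multiplied by 1000000 (CPM). Intervals are exact Poisson, conditional binomial or Clopper-Pearson intervals, and a count of 0 was set to 3 counts in log2 ratios. A gene counted as higher or lower at 2-fold, where both libraries together gave the gene at least 20 UMIs. Thinned cells were drawn down to 500 UMIs. The ratio and thinning steps were tested on simulated data.

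Named genes are the members, up to 4 genes per list farthest from a log2 ratio of 0, the 3 nearest genes by likeness of log2(CPM + 10), and the 8 farthest genes per side between kinds of cells. Rspo3, the platelet genes and the genes that split the lymphoid, dendritic and stellate cells were chosen after their values were seen. The members and lists were chosen with earlier results of these data known. Alternatives covered the gate, doublets, filters, depth, scaling and cells with stromal genes.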

Additional observations from a re-analysis of the deposited data

How the results depend on the processing

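No paired analysis was possible because each genotype has 1 library. Of 10 members, Clec4g, Oit3, Dnase1l3 and Plvap stayed above a log2 ratio of 0 and Cd34 below 0 under all 16 alternatives run. Ehd3 was above 0 in 1, Lyve1 in 2, and Stab2 and Gpr182 below 0 in 3 and 5. For Lyve1 these were thinning to 500 UMIs (0.016) and the mean of cells' own CPM (0.086). The log2 ratio of the sinusoidal sum (0.31) was 0.56 with a gate of at least 3 UMIs, -0.046 with Pecam1 in place of Kdr in the gate, 0.17 with Ptprc at most 1, 0.15 without cells passing another gate and 0.033 in cells of at least 1000 UMIs. It was -0.11 without the stromal-gene cells and -0.085 without both kinds of cells. The capillary sum (0.18) was -0.44 with Ptprc at most 1, 1.07 without cells passing another gate, -0.27 thinned, 1.46 without both kinds and 0.86 with a UMI of Pecam1 or Ptprb required. Vwf ran from -0.98 thinned to 500 UMIs, which rests on 6 and 5 UMIs, to 2.71 without cells passing another gate. The median of the other sinusoidal genes (0.17) was -0.27 without Kdr in the gate, -0.15 without the stromal-gene cells and -0.13 without both kinds.

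The share of cells with sinusoidal members alone was 36.0% in FL/FL and 53.0% in ΔMAC without Kdr in the gate, and 61.0% in ΔMAC cells of at least 1000 UMIs. The share with any sinusoidal UMI (85.2% and 89.9%) was 48.3% and 61.9% without Kdr in the gate. In ΔMAC it was 95.5% with at least 3 gate UMIs, 96.2% without both kinds and 98.4% with Pecam1 or Ptprb required. The 174 genes between kinds of cells became 11 thinned, 81 with at least 50 UMIs per library, 58 without the stromal-gene cells, 80 without both kinds and 82 with Pecam1 or Ptprb required. Except where cells, UMIs or genes were fewer by construction, the cause was not tested. The settings without stromal-gene cells, without both kinds, with Pecam1 or Ptprb, and without the cell richest in capillary UMIs were chosen after the data had been seen. Between 54 and 89 cells limit each value, and members with under 20 UMIs in a class carry wide intervals.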
